A study of Arabidopsis thaliana with 12 samples.

Results

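Chlorophyll is made in the plastid by the tetrapyrrole pathway, and the 6 genes described here encode enzymes of that pathway other than protochlorophyllide oxidoreductase (POR), the enzyme that needs light to make chlorophyllide. They are *HEMA1* (AT1G58290), *HEME1* (AT3G14930), *CHLI1* (AT4G18480), *GUN5* (AT5G13630), *CAO* (AT1G44446) and *CHLG* (AT3G51820). Each was taken by its locus and found on 1 probe set of an Affymetrix Arabidopsis array, so that they make up 6 of the 38122 probe sets tested. The platform annotation named *HEME1*, and the other 5 were named only through the study's list of regulated genes, which holds genes that the study called on these same arrays in WT SD against WT LL or in *pifq* SD against WT SD. All 6 are on that list, so their calls in these comparisons are not independent evidence of a direction.

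The arrays measured total RNA of whole *Arabidopsis thaliana* seedlings, 3 days old, of the Col-0 wild type (WT) and of *pifq*, a mutant in the Col-0 background that lacks the PHYTOCHROME-INTERACTING FACTORs PIF1, PIF3, PIF4 and PIF5. All seedlings were raised without sucrose in short days (SD, 8 h of white light at 85 μmol per square metre per second and 16 h of darkness) for 2 days. During 1 further day they either stayed in SD and were sampled as the night ended, or stood in continuous white light (LL) and were sampled at the same clock time, 24 h into that day. The 4 groups are written WT SD and WT LL for the wild type, *pifq* SD and *pifq* LL for the mutant, and had 3 biological replicates each.

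The pathway starts from glutamate bound to its transfer RNA, builds a ring shared by chlorophyll and heme, and splits where a chelatase inserts either magnesium or iron. The magnesium branch then ends with the reduction of the ring by POR and with the addition of a phytol tail. PIFs are basic helix-loop-helix transcription factors that build up in darkness and are removed in light through phytochromes. They are known to hold back genes of chlorophyll synthesis in dark-grown seedlings, and dark-grown *pifq* mutants accumulate protochlorophyllide in excess.

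The genotype labels were checked on the *PIF* probe sets. On the log2 scale, *PIF1* lay between 8.07 and 8.58 on WT arrays and between 6.12 and 6.83 on *pifq* arrays, *PIF3* between 7.10 and 7.73 and between 3.10 and 3.98, and *PIF5* between 9.45 and 10.0 and between 5.51 and 6.70. No probe set was named *PIF4*. Over all probe sets, WT SD replicate 2 was most alike to *pifq* SD replicate 2 (Pearson r = 0.974) and not to its own group, *pifq* SD replicate 1 was most alike to WT SD replicate 3, and each *pifq* LL array to WT LL replicate 3. Of the cell type markers looked for, only 1 photosynthetic and 1 root gene had a named probe set, and no seed marker had one. They were *RCA*, which encodes Rubisco activase, and the root hair gene *EXPA7*. The other markers were not shown to be absent from the arrays.

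All 6 transcripts were lowest in WT SD, and the 3 WT SD arrays lay below all 9 other arrays for every gene. The share of all probe sets with this pattern was not computed. In either direction, WT SD did not overlap WT LL for 28.2% of probe sets, *pifq* LL for 26.5% and *pifq* SD for 15.6%. *HEMA1*, *CHLI1*, *GUN5* and *CAO* were called lower in WT SD against WT LL, by 1.52 to 1.79 fold, where called means a Benjamini-Hochberg adjusted p below 0.05 in limma and a change of at least 1.5 fold. *HEMA1*, *HEME1*, *CHLI1* and *CHLG* were called higher in *pifq* SD against WT SD, by 1.60 to 1.62 fold. None was called between *pifq* SD and *pifq* LL or between *pifq* LL and WT LL. All values below are log2 array signals, and a log2 FC (fold change) is a difference of group means.

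**Figure D1:**
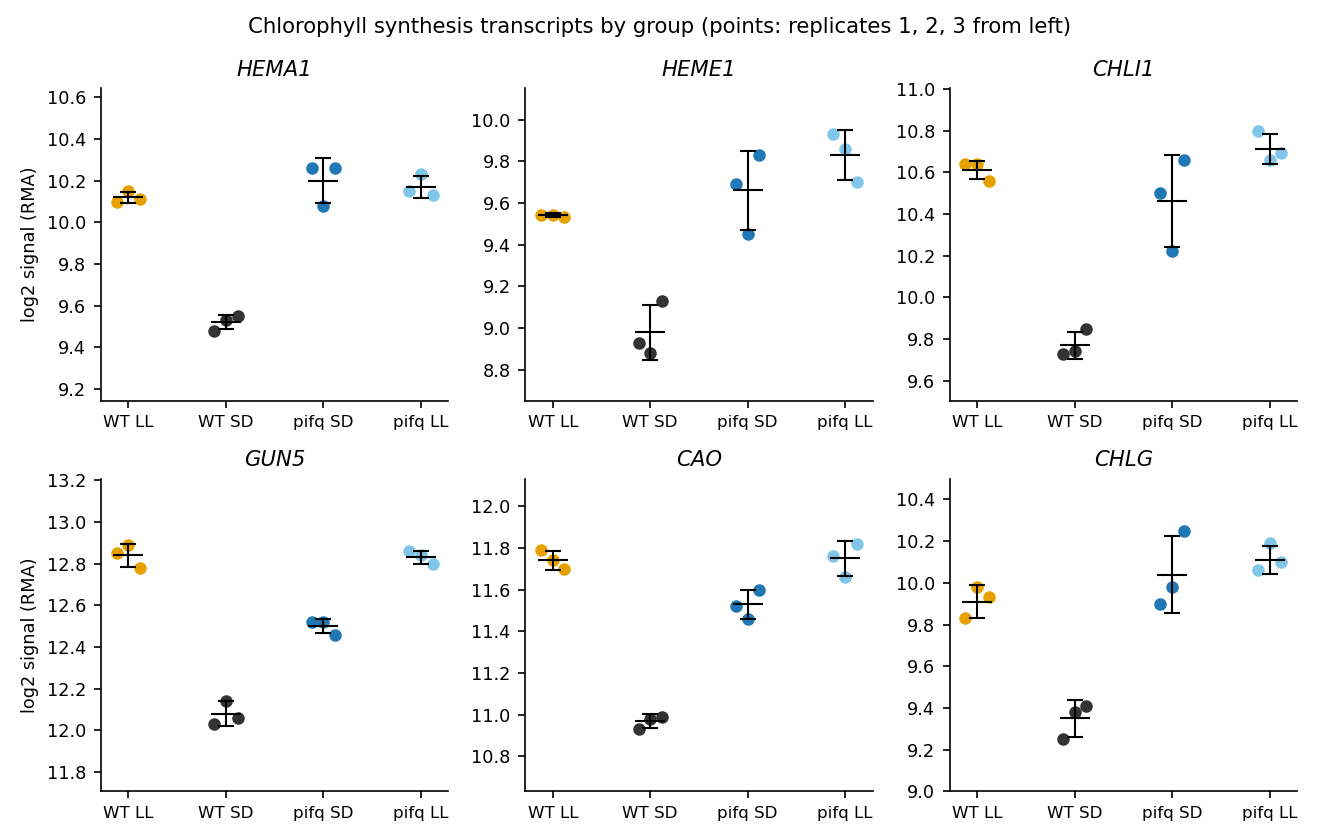
log2 signal of each gene on each array (points, replicates 1 to 3 from left to right in a group) with the group mean and SD (bars, n = 3); each panel spans 1.5 log2 units. For every gene the WT SD points are the lowest, and for *GUN5* and *CAO* the *pifq* SD points lie between WT SD and both LL groups.

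*HEMA1* encodes the main glutamyl-tRNA reductase, which carries out the first committed step of 5-aminolevulinic acid (ALA) synthesis. Its signal was 9.48, 9.53 and 9.55 in WT SD (9.52 ± 0.0335, SD, n = 3) and 10.10, 10.15 and 10.11 in WT LL (10.12 ± 0.0273). In *pifq* it was 10.26, 10.08 and 10.26 in SD (10.20 ± 0.107) and 10.15, 10.23 and 10.13 in LL (10.17 ± 0.0535). The WT SD arrays stood alone at the bottom, and the other 3 groups overlapped one another. *HEMA1* fell in WT SD against WT LL, with a log2 FC of -0.60 ± 0.0961 (SE, limma adjusted p = 0.00296), and was 0.68 ± 0.0961 higher in *pifq* SD against WT SD (adjusted p = 0.00622). Between *pifq* SD and *pifq* LL its log2 FC was 0.03, with a 95% interval from -0.19 to 0.24.

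*HEME1* encodes a uroporphyrinogen decarboxylase, an enzyme of the trunk that chlorophyll and heme share. It read 8.93, 8.88 and 9.13 in WT SD (8.98 ± 0.132, SD, n = 3) and 9.54, 9.54 and 9.53 in WT LL (9.54 ± 0.00983). In *pifq* it read 9.69, 9.45 and 9.83 in SD (9.66 ± 0.188) and 9.93, 9.86 and 9.70 in LL (9.83 ± 0.122). The *pifq* LL arrays all lay above those of WT LL, and the *pifq* SD arrays overlapped both LL groups. The log2 FC in WT SD against WT LL was -0.56 ± 0.126 (SE, limma adjusted p = 0.0205), a change of 1.47 fold that missed the 1.5 fold required. In *pifq* SD against WT SD, *HEME1* was called higher by 0.67 ± 0.126 (adjusted p = 0.0272).

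*CHLI1* and *GUN5* encode subunits of the magnesium chelatase, the ATPase subunit and the large porphyrin-binding subunit CHLH, and so act where the chlorophyll branch leaves the shared trunk. *CHLI1* read 9.73, 9.74 and 9.85 in WT SD (9.77 ± 0.0644, SD, n = 3) and 10.64, 10.64 and 10.56 in WT LL (10.61 ± 0.0421). In *pifq* it read 10.50, 10.22 and 10.66 in SD (10.46 ± 0.221) and 10.80, 10.66 and 10.69 in LL (10.71 ± 0.0730). Replicate 2 was the lowest of the *pifq* SD arrays, and replicate 3 reached the range of both LL groups. *CHLI1* fell in WT SD against WT LL, with a log2 FC of -0.84 ± 0.122 (SE, limma adjusted p = 0.00178), the largest of the 6 decreases, and was called 0.69 ± 0.122 higher in *pifq* SD against WT SD (adjusted p = 0.0210).

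*GUN5*, also known for its part in signalling from the plastid to the nucleus, read 12.03, 12.14 and 12.06 in WT SD (12.08 ± 0.0597, SD, n = 3) and 12.85, 12.89 and 12.78 in WT LL (12.84 ± 0.0555). In *pifq* it read 12.52, 12.52 and 12.46 in SD (12.50 ± 0.0345) and 12.86, 12.84 and 12.80 in LL (12.83 ± 0.0306). The *pifq* SD arrays formed a level of their own, above WT SD and below both LL groups, which overlapped. *GUN5* fell in WT SD against WT LL, with a log2 FC of -0.76 ± 0.0909 (SE, limma adjusted p = 0.000549). Its log2 FC of 0.42 ± 0.0909 in *pifq* SD against WT SD was not called (adjusted p = 0.0514), nor was that of -0.34 ± 0.0909 in *pifq* SD against *pifq* LL (adjusted p = 0.0676).

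*CAO* encodes chlorophyllide *a* oxygenase, which makes the *b* form of the pigment. It read 10.93, 10.98 and 10.99 in WT SD (10.97 ± 0.0347, SD, n = 3) and 11.79, 11.74 and 11.70 in WT LL (11.74 ± 0.0468). In *pifq* it read 11.52, 11.46 and 11.60 in SD (11.53 ± 0.0689) and 11.76, 11.66 and 11.82 in LL (11.75 ± 0.0852). As for *GUN5*, the *pifq* SD arrays lay between WT SD and the LL groups without overlap. *CAO* fell in WT SD against WT LL, with a log2 FC of -0.77 ± 0.0955 (SE, limma adjusted p = 0.000661). In *pifq* SD against WT SD its log2 FC was 0.56 ± 0.0955 (adjusted p = 0.0168), which at 1.47 fold missed the fold required.

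*CHLG* encodes chlorophyll synthase, which joins the phytol tail to chlorophyllide in the last step. It read 9.25, 9.38 and 9.41 in WT SD (9.35 ± 0.0885, SD, n = 3) and 9.83, 9.98 and 9.93 in WT LL (9.91 ± 0.0785). In *pifq* it read 9.90, 9.98 and 10.25 in SD (10.04 ± 0.185) and 10.06, 10.19 and 10.10 in LL (10.11 ± 0.0661). The *pifq* SD arrays overlapped both LL groups, and their replicate 3 was the highest of the 12 arrays. The log2 FC was -0.56 ± 0.118 (SE, limma adjusted p = 0.0137) in WT SD against WT LL, a change of 1.48 fold that missed the fold required, and *CHLG* was called 0.69 ± 0.118 higher in *pifq* SD against WT SD (adjusted p = 0.0167).

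The comparison of WT SD with WT LL asked how the night of a short day moved transcripts in the wild type. Of the 6 genes, 4 were called lower and 0 higher, where 3.43% of all probe sets tested were called lower and 6.59% in either direction. Of the 1987 probe sets on the study's list, which all 6 genes are on, 50.2% were called lower. By adjusted p alone, with no fold required, all 6 were lower, against 4.36% of probe sets. The WT SD arrays also stood below those of *pifq* LL for 6 of 6 genes, a lack of overlap seen for 26.5% of probe sets. The arrays of WT SD and WT LL did not overlap for 6 of 6 genes, against 28.2% of all probe sets. The median log2 FC of the 6 was -0.68, beside -0.01 over all probe sets. Without 1 array, 4 to 6 of the genes were called, and centring each array on its own median moved *HEMA1* to -0.56 (limma adjusted p = 0.00537), below the fold required.

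The comparison of *pifq* SD with WT SD asked how the loss of the PIFs changed transcripts at the end of the night, and it shared the WT SD arrays with the comparison above. Here 4 of 6 genes were called higher and 0 lower, against 0.635% of probe sets called higher, 1.48% called in either direction and 9.16% of the study's list called higher, and by adjusted p alone 5 were higher, against 0.782%. The arrays did not overlap for 6 of 6 genes, against 15.6% of probe sets, and the median log2 FC was 0.68, beside 0.03 over all probe sets. This count depended on which arrays were in the fit. It rose to 5 without *pifq* SD replicate 2 and was 4 without any 1 *pifq* LL array and 3 without any 1 WT LL array. It fell to 1 without WT SD replicate 1, WT SD replicate 2 or *pifq* SD replicate 3, and to 2 without WT SD replicate 3 or *pifq* SD replicate 1. With only the 6 arrays compared it was 0, when 66 of all probe sets were called in place of 565, while the log2 FCs stayed as given. With both SD arrays numbered 2 left out, a setting chosen after seeing the data, 2 genes were called. *HEMA1* alone kept its call without each array in turn, and its log2 FC then lay between 0.65 and 0.74.

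**Figure D2:**
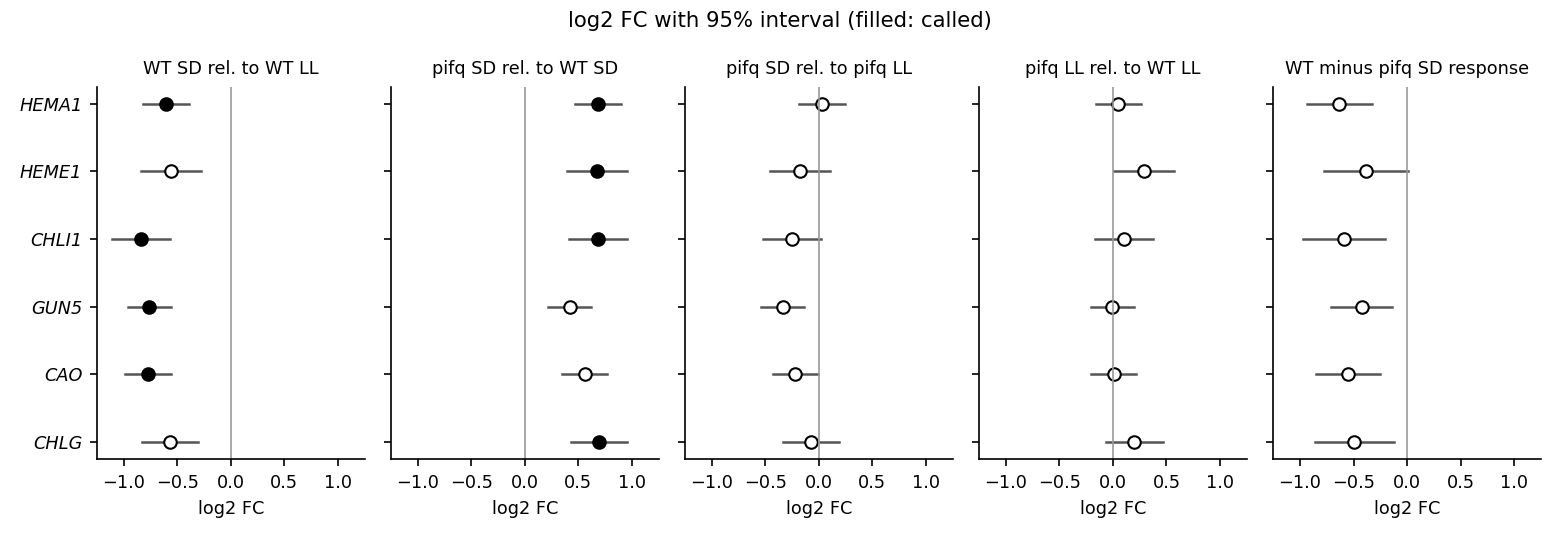
log2 FC of each gene (points, filled where called) with its 95% interval (lines) in 5 comparisons from limma over all 12 arrays. The intervals lie below 0 for all 6 genes in WT SD against WT LL and above 0 for all 6 in *pifq* SD against WT SD, and in *pifq* LL against WT LL all but that of *HEME1* span 0.

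The study's list rests on comparisons without the *pifq* LL arrays, though the *pifq* SD arrays served in both. In *pifq* SD against *pifq* LL, 0 of 6 genes were called in limma, where 3.67% of all probe sets were called in either direction, and *GUN5* and *CAO* had an unadjusted p below 0.05, as had 18.0% of all probe sets. The log2 FCs ran from -0.34 (*GUN5*) to 0.03 (*HEMA1*), with *CHLI1* at -0.25, *CAO* at -0.22, *HEME1* at -0.17 and *CHLG* at -0.07. The *pifq* SD and *pifq* LL arrays did not overlap for *GUN5* and *CAO*, 2 of 6, against 21.9% of probe sets. Of the 1987 tested probe sets on the study's list, 37.5% were called in this comparison, and none of these 6 was.

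In *pifq* LL against WT LL, 0 of 6 genes were called, as were 0.0184% of all probe sets. The log2 FCs ran from -0.01 for *GUN5* and 0.01 for *CAO* through 0.05 for *HEMA1*, 0.10 for *CHLI1* and 0.20 for *CHLG* to 0.29 for *HEME1*. *HEME1* had the only interval that did not reach 0, from 0.01 to 0.57, with an unadjusted limma p of 0.0427 and an adjusted p of 0.784. The arrays of the 2 genotypes in LL did not overlap for *HEME1*, *CHLI1* and *CHLG*, 3 of 6 genes, against 13.3% of probe sets. For *HEMA1*, *GUN5* and *CAO* the 95% intervals allowed a difference of at most 0.26 in either direction.

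Whether the SD response differed between the genotypes was tested as the response of WT (SD minus LL) less that of *pifq*. This difference was below 0 for all 6 genes, at -0.63 ± 0.136 (SE) for *HEMA1*, -0.59 ± 0.173 for *CHLI1*, -0.55 ± 0.135 for *CAO*, -0.49 ± 0.167 for *CHLG*, -0.43 ± 0.129 for *GUN5* and -0.38 ± 0.178 for *HEME1*. None was called, where 0.152% of all probe sets were, and the limma adjusted p ran from 0.162 (*HEMA1*) to 0.779 (*HEME1*). Unadjusted p was below 0.05 for 5 of the 6, all but *HEME1*, against 6.58% of all probe sets. *HEMA1* was called when dim probe sets were left out (adjusted p = 0.0317) or when the spread was allowed to vary with signal (adjusted p = 0.0103), and over all alternatives its adjusted p lay between 0.0103 and 0.430. The response was thus further below 0 in WT for all 6 genes, and in none did the difference pass the test over all probe sets. It was also below 0 for 19315 of all 38122 probe sets and for 1126 of the 1987 on the study's list. The WT arrays in this difference were also used by the study's list, so the shared sign is not independent of that choice.

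The study expresses the part that PIFs play as PIFq contribution, the difference between *pifq* SD and WT SD as a percentage of the SD response of WT, so that 100% means that *pifq* SD stands at the WT LL level. It was 113% ± 17.0 (SE) for *HEMA1*, 121% ± 25.4 for *HEME1* and 123% ± 23.7 for *CHLG*. It was 81.6% ± 13.4 for *CHLI1*, 72.4% ± 11.0 for *CAO* and 54.9% ± 10.3 for *GUN5*. The *pifq* SD means of the first 3 genes thus lay past the WT LL level and those of the other 3 short of it, but only for *GUN5* and *CAO* did the *pifq* SD and WT LL arrays not overlap, 2 of 6 genes against 26.9% of probe sets. Among the 1661 probe sets that were lower in WT SD by adjusted p alone, the median contribution was 34.3%, with quartiles of 5.43% and 57.9%. These were chosen by WT SD against WT LL alone. All 6 genes are on the study's list, which also drew on *pifq* SD against WT SD, so the sets are not alike. The study's own average, over genes it called repressed by both SD and PIFs, was above this median. That average came from mean log2 FCs of a set chosen also by *pifq* SD against WT SD, so it is not a like measure. Because contribution and SD response share the WT SD arrays, the contribution carries their error in both terms.

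The share of the WT response that *pifq* kept, computed from its own SD and LL arrays, used no array of the numerator in the denominator. It was 44.2% ± 13.0 (SE) for *GUN5*, 31.1% ± 23.7 for *HEME1*, 30.2% ± 15.2 for *CHLI1* and 28.4% ± 12.8 for *CAO*. It was 12.6% ± 21.1 for *CHLG* and -4.6% ± 15.9 for *HEMA1*, where a value of 0 means no SD response in *pifq*. Over the same 1661 probe sets the median was 58.4%, with quartiles of 39.7% and 80.5%. *GUN5* lay within those quartiles and the other 5 genes below them. All the genes described are on the study's list, which drew on the WT SD, WT LL and *pifq* SD arrays. The 1661 probe sets were not chosen by that list. The place of the genes against these quartiles is thus not independent of that choice, and quartiles over the list were not computed. Without 1 array, the retained share ranged from 41.6% to 46.4% for *GUN5* and from 23.5% to 34.4% for *CAO*. It was less settled for *HEME1* (13.0% to 46.4%), *CHLI1* (15.9% to 41.9%) and *CHLG* (-0.349% to 31.1%), and lay between -14.9% and 0.808% for *HEMA1*. With both SD arrays numbered 2 left out it was 14.2% for *HEME1* and 16.2% for *CHLI1*.

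**Figure D3:**
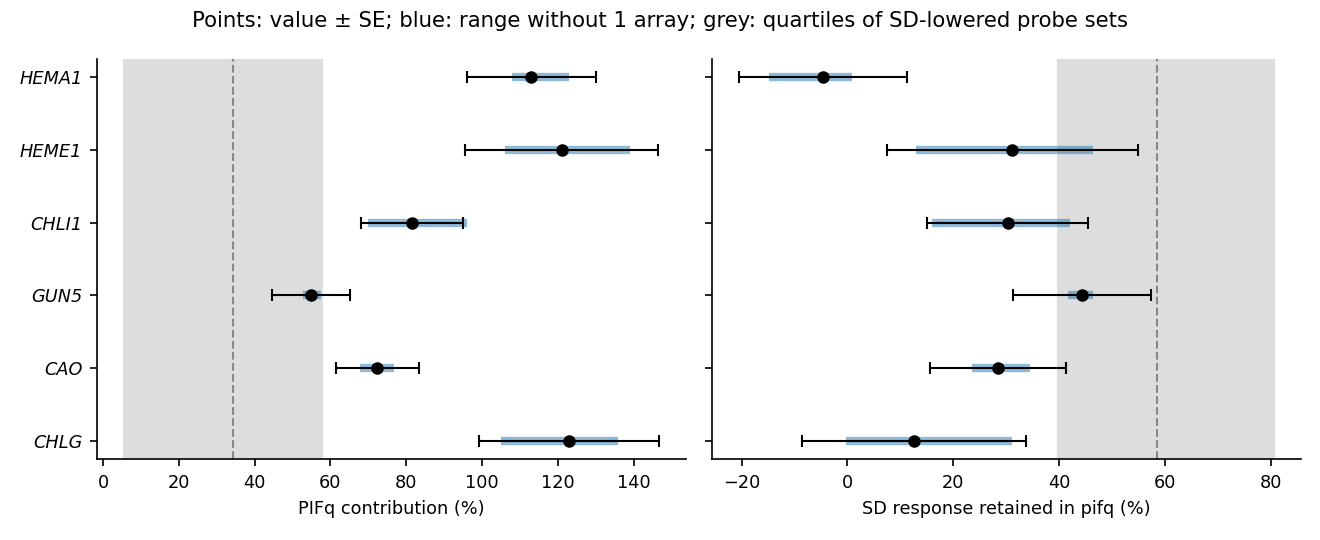
PIFq contribution (left, percent) and share of the WT SD response kept in *pifq* (right, percent) for each gene, with SE (black bars) and the range when 1 array was left out (blue). The grey band and dashed line are the quartiles and median of the 1661 probe sets lower in WT SD, and *GUN5* is the 1 gene whose points lie within both bands. The genes shown are all on the study's list and the 1661 probe sets were not chosen by it, so the sets are not alike.

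Whether the genes changed by unequal amounts was asked for each of 15 pairs, by comparing the difference of the 2 signals between groups, array by array. In WT SD and WT LL the groups did not overlap for 8 of the 15 pairs, with the log2 FCs of *CHLI1*, *GUN5* and *CAO* below those of *HEMA1* and *CHLG*, and those of *CHLI1* and *CAO* below that of *HEME1*. The largest gap was 0.28 on the log2 scale. In WT SD and *pifq* SD the groups did not overlap for 4 pairs, *GUN5* with *HEMA1*, *CAO* and *CHLG*, and *HEMA1* with *CAO*, with gaps of 0.12 to 0.28. The smallest exact permutation p was 0.1, the lowest that 3 arrays against 3 allow. After adjustment over the 15 pairs it was 0.188 and 0.375. The test thus cannot order the genes, and the order given describes these arrays only. The pairs share genes and are not independent of one another. The share of pairs of other probe sets without overlap was not computed.

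Within a group, the arrays varied in part together. *pifq* SD replicate 2 lay 0.11 below its group mean on average, with 5 of the 6 genes below it, and *pifq* SD replicate 3 lay 0.11 above, while the mean deviation of every other array was between -0.05 and 0.05. Across all 12 arrays the Pearson r of 2 of the genes lay between 0.80 and 0.98 over the 15 pairs (median 0.92), which includes the difference between WT SD and the rest. After the group means were taken out it lay between -0.17 and 0.87 (median 0.30), above 0 for 11 of 15 pairs. These correlations come from the same 12 libraries and are given as a description.

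*RCA* was also lowest in WT SD. It lay between 12.69 and 12.80 in WT SD, between 13.12 and 13.20 in WT LL, between 12.86 and 12.99 in *pifq* SD and between 13.09 and 13.20 in *pifq* LL. Its *pifq* SD arrays lay below both LL groups, as for *GUN5* and *CAO* but not for the other 4 genes. *RCA* was 1 of 6 photosynthetic markers looked for, and its part in the results on chlorophyll synthesis was not tested. In whole seedlings, fewer green cells and less RNA per cell cannot be told apart. *EXPA7*, 1 of 5 root markers looked for, differed the other way between the WT groups. It lay between 7.41 and 7.82 in WT SD, above all WT LL arrays (7.21 to 7.34), and at 7.44 to 7.49 in *pifq* SD and 7.40 to 7.44 in *pifq* LL it overlapped WT SD. Its part in the results was not tested either.

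The rest of the pathway was followed with a list of 41 genes of tetrapyrrole metabolism. For 19 of them no probe set was named, which does not show that the arrays lack them. A named probe set was found for 22, the 6 genes above and 16 others. Of these 16, 10 were named by the platform annotation and 6 through the study's list, and the 2 sets are kept apart because the second was chosen on these arrays. Among the 10, 1 was called lower in WT SD against WT LL and 0 higher, and 0 were called in any other comparison. The median log2 FC of the 10 was -0.07 in WT SD against WT LL and 0.27 in *pifq* SD against WT SD. Unadjusted limma p was below 0.05 for 2 of the 10 in the first of these comparisons, against 19.7% of all probe sets, and for 4 in the second, against 10.7%.

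The 1 called gene was *HEME2*, the paralog of *HEME1*. It read 8.41, 8.12 and 8.51 in WT SD and 9.03, 9.02 and 9.04 in WT LL, and 9.00, 8.53 and 9.12 in *pifq* SD and 9.23, 9.15 and 9.35 in *pifq* LL. Its log2 FC was -0.69 in WT SD against WT LL (limma adjusted p = 0.0252) and 0.54 in *pifq* SD against WT SD (adjusted p = 0.186), and *pifq* SD replicate 2 lay close to the WT SD range. The call of *HEME2* was lost without WT SD replicate 1 or 2 and without any 1 WT LL array. Of the paralogs of *HEMA1*, *HEMA2* had a log2 FC of 0.34 in WT SD against WT LL (adjusted p = 0.464), and its difference from *HEMA1* was not tested. *HEMA3* read 2.17 to 3.59 over the 12 arrays, around or below the lower quartile of the arrays, and no log2 FC is drawn from it. The chelatase partners *CHLI2*, *CHLD* and *GUN4* were not analysed here.

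Other enzymes of the pathway are set beside the magnesium chelatase. *CHLM*, the methyltransferase that acts just after it, had a log2 FC of -0.10 in WT SD against WT LL (limma adjusted p = 0.690) and 0.38 in *pifq* SD against WT SD (adjusted p = 0.139). *GSA1*, a glutamate-1-semialdehyde aminotransferase that completes ALA synthesis, had -0.22 (adjusted p = 0.310) and 0.32 (adjusted p = 0.256). Its paralog *GSA2*, named through the study's list, fell in WT SD against WT LL with a log2 FC of -0.74 (adjusted p = 0.0217). In *pifq* SD against WT SD, *GSA2* had 0.51 (adjusted p = 0.239). *NOL*, which acts in chlorophyll *b* breakdown, had -0.32 in WT SD against WT LL (adjusted p = 0.237) and 0.33 in *pifq* SD against WT SD (adjusted p = 0.411). *GGR*, a geranylgeranyl reductase of the late steps, had -0.08 in WT SD against WT LL (adjusted p = 0.765) and 0.21 in *pifq* SD against WT SD (adjusted p = 0.526). None of these log2 FCs other than that of *GSA2* in WT SD against WT LL was called.

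Among the 6 genes named through the study's list, 5 were called lower and 1 higher in WT SD against WT LL, which the list itself selected. *FC2*, a plastid ferrochelatase that inserts iron and so stands at the same branch point as *CHLI1* and *GUN5*, fell with a log2 FC of -0.88 in WT (limma adjusted p = 0.00169) and -0.71 in *pifq* (SD relative to LL, adjusted p = 0.0119). *ACD2*, which acts in chlorophyll breakdown, fell by 1.32 in WT and by 1.08 in *pifq* on the log2 scale, and *PORC* by 1.29 and 1.12. These 3 were the only pathway genes called in *pifq* SD against *pifq* LL, and their log2 FCs in *pifq* SD against WT SD lay between 0.09 and 0.26 and were not called. The number of pathway genes called in *pifq* SD against *pifq* LL was 0 with only the arrays compared. It was 2 to 3 without 1 array and 4 with the replicate block. *DVR*, a divinyl reductase, fell with a log2 FC of -1.36 in WT, and in *pifq* its log2 FC of -0.76 was not called (adjusted p = 0.0577). In *pifq* SD against WT SD, *DVR* had 0.63 and was not called (adjusted p = 0.216). The WT response less that of *pifq* was -0.59 for *DVR*, -0.55 for *GSA2* and -0.50 for *NOL*, none of them called. For the 6 genes described it ran from -0.63 to -0.38. It was below 0 for 5 of the 6 genes named through the list and 8 of the 10 named by the platform.

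*PORA*, the POR of dark-grown seedlings, went the other way. It read 6.08, 5.63 and 5.28 in WT SD and 3.50, 3.02 and 3.21 in WT LL, and 4.11, 4.16 and 4.25 in *pifq* SD and 4.11, 3.69 and 2.93 in *pifq* LL. The WT LL signals lay near or below the lower quartile of their arrays (3.42 to 3.57 over the 12 arrays) and were not shown to be above background, so the size of a difference from them is uncertain. *PORA* was called higher in WT SD against WT LL (limma adjusted p = 0.000525) and lower in *pifq* SD against WT SD, with a log2 FC of -1.49 (adjusted p = 0.0316). The second call depended on the arrays in the fit. It was lost with only the arrays compared and without any 1 *pifq* SD array. It was also lost without WT SD replicate 1 or 2, WT LL replicate 2 or 3, or *pifq* LL replicate 2. The direction of *PORA* was thus the reverse of that of the 6 genes in both comparisons. *PORB*, another POR gene, was called in neither, with log2 FCs of 0.35 (limma adjusted p = 0.655) and -0.34 (adjusted p = 0.861).

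**Figure D4:**
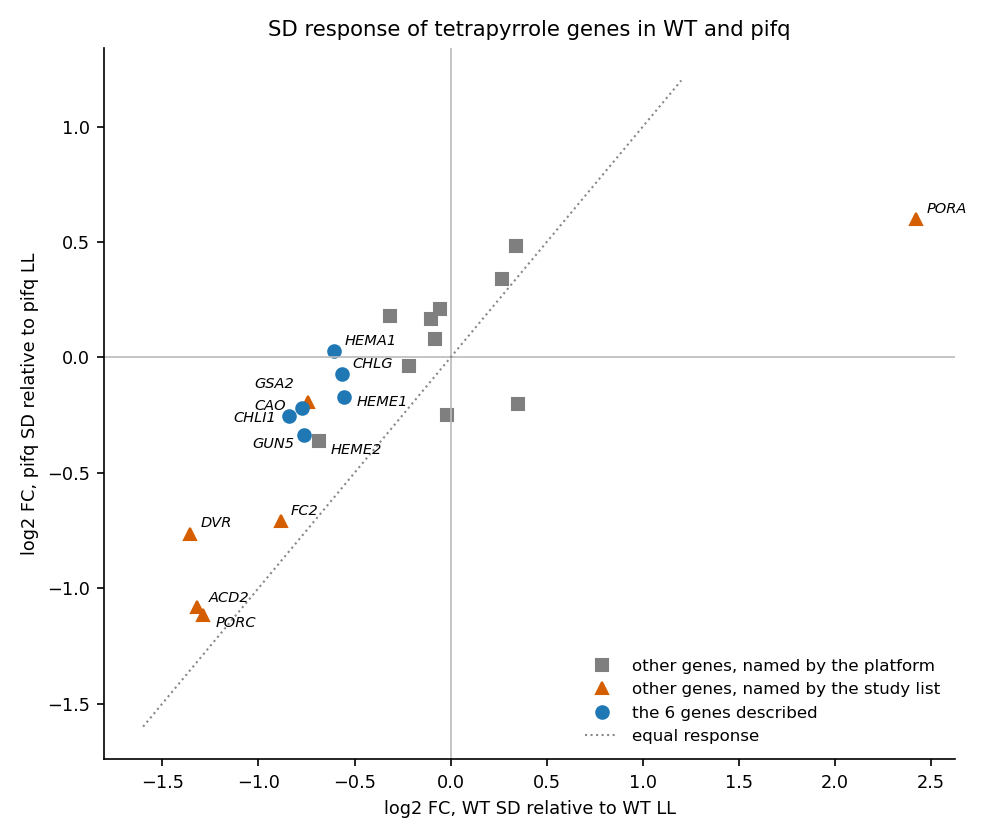
log2 FC of 22 tetrapyrrole genes in WT SD against WT LL (x axis) and in *pifq* SD against *pifq* LL (y axis), for the 6 genes described (circles), others named by the platform (squares) and others named through the study's list (triangles). Names are shown for the 6 genes described and for others where the WT log2 FC exceeds 0.6 in size. The 6 genes lie between -0.84 and -0.56 on the x axis and between -0.34 and 0.03 on the y axis, above the line of equal response, and *FC2*, *ACD2* and *PORC* lie closer to it.

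The named genes whose pattern over the 12 arrays was most like the mean of the 6, after each gene was set to a mean of 0 and an SD of 1, were AT5G49215 (Pearson r = 0.983), AT1G44000 (r = 0.982), AT5G19850 (r = 0.982), AT1G47530 (r = 0.981) and *RVE1* (r = 0.980). The first 4 were named by the platform annotation and *RVE1*, a Myb-like transcription factor of the family that holds clock genes, through the study's list. For comparison, the r of each of the 6 genes with the mean that includes it lay between 0.925 (*GUN5*) and 0.989 (*CHLI1*). In WT SD against WT LL the log2 FC was -0.42 for AT5G49215, -0.98 for AT1G44000, -1.36 for AT5G19850, -0.49 for AT1G47530 and -0.78 for *RVE1*. In *pifq* SD against *pifq* LL it lay between -0.40 and -0.12 for these 5. They were chosen for this likeness, so these values carry no test.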

How the data were processed

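Total RNA was extracted with the RNeasy Plant Mini Kit, labelled with biotin and hybridised by the authors to 12 Affymetrix Arabidopsis arrays. The deposited table holds log2 signals per probe set, summarised by RMA per the submitters' processing notes, and array medians ran from 5.00 to 5.12. From 38408 probe sets, 98 control sets and 188 that repeat a gene (brightest kept) were dropped. Names came from the platform annotation (16662 probe sets with 1 gene) or, for 1041, only from the study's gene list, held in part (1999 rows). Probe sets with several genes (759) were not named.

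limma 3.58.1 (R 4.3.3) was fitted to all 12 arrays with 1 mean per group and no covariate, after a test on simulated data, with Benjamini-Hochberg adjustment over 38122 probe sets. It replaces the methods' error-weighted analysis of variance at the same thresholds (adjusted p below 0.05, at least 1.5 fold). Background correction was not revisited, since the values were already summarised. The number of arrays (3 per group) limits precision. Genes named were the 6, their paralogs and partners, the pathway genes with the smallest adjusted p, and the 5 most alike. Alternatives covered scaling, dim probe sets, variance model, fold, arrays and the replicate block. The 6 genes and the lists were chosen with earlier results of these data known. The retained share was added after seeing the data.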

Additional observations from a re-analysis of the deposited data

How the results depend on the processing

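Over 744 alternative values of the log2 FCs of the 6 genes, 692 kept their direction and their side of the threshold, 32 lost a call, 9 gained one and 11 changed sign. All sign changes were in values near 0 that were not called. *CAO* in *pifq* LL against WT LL was -0.018 with arrays centred on their medians and -0.0022 with array weights, and -0.032 to 0.052 without 1 array. *GUN5* in the same comparison was 0.0011 with array weights and -0.037 to 0.018 without 1 array. In *pifq* SD against *pifq* LL, *HEMA1* was -0.0049 to 0.09 and *CHLG* -0.18 to 0.002 without 1 array. At a fold of at least 2, 0 of the 6 genes were called in WT SD against WT LL and 0 in *pifq* SD against WT SD. In the first the count was 4 to 6 without 1 array. In the second it was 1 to 5 without 1 array, 0 with only the arrays compared (fewer samples in the fit) and 2 when both SD arrays numbered 2 were left out, a setting chosen after seeing the data. For the difference between the genotypes, 1 gene (*HEMA1*) was called with the filter on dim probe sets and 1 with a mean-variance trend, and the cause was not tested. Pairs of genes with no overlap numbered 8 to 10 in WT SD and WT LL and 4 to 8 in WT SD and *pifq* SD without 1 array, and 9 in the latter when both SD arrays numbered 2 were left out. Over all probe sets, calls in *pifq* SD against WT SD were 565, and 66 with only the arrays compared, 226 at a fold of at least 2 and 273 to 503 without 1 array. In *pifq* SD against *pifq* LL they were 1398, and 189 with only the arrays compared, 480 at a fold of at least 2 and 834 to 1367 without 1 array. In WT SD against WT LL they were 2513, and 940 at a fold of at least 2. For the difference between the genotypes they were 58, and 181 with the dim filter, 206 with the trend and 6 to 26 without 1 array. In *pifq* LL against WT LL they were 7, and 16 with the dim filter and 18 with the trend.

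The replicate numbers were not taken to pair the arrays, since not every same-numbered pair correlated above 0.1. Deviations of same-numbered arrays correlated between -0.066 and 0.055 in 3 comparisons and between 0.081 and 0.348 in WT SD and *pifq* SD, where differently numbered arrays gave -0.232 to 0.119. With the replicate block, 4 of the 6 genes were called in WT SD against WT LL and 3 in *pifq* SD against WT SD, where *HEME1* lost its call (limma adjusted p = 0.0555), 0 in the other comparisons, and 33 probe sets in the difference between the genotypes. It changed no other call of the 6 genes. Scanner files were not used here, so background correction and slide could not be varied.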
